A study of Mus musculus with 6 samples.

Results

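The 10 basement membrane genes described here are Col4a1, Col4a2, Lama4, Lama5, Lamb1, Lamb2, Lamc1, Nid1, Hspg2 and Sparc, taken as a named list and matched by gene symbol to the deposited count files. All 10 were found among the 40879 symbols of each file, and all 10 passed the low-count filter that left 12776 genes for testing. The study measured messenger RNA in primary hepatic stellate cells of wild-type male mice after 24 h in culture with vehicle (3 libraries) or with APB-R3 (3 libraries), an engineered form of the IL-18 binding protein, to ask whether it attenuates stellate cell activation. The series text gives the APB-R3 dose as 150 µg/ml and the sample protocol as 150 µg/kg, so the unit is uncertain. Age and strain of the mice, their number and any pooling are not stated in the labels used here. Whether each replicate is a culture or an animal of its own is also not stated, so that p-values reflect the spread among libraries only, and this spread may be technical.

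The basement membrane is a thin sheet of matrix on which endothelial and epithelial cells rest and which wraps muscle cells, fat cells and pericytes. A network of laminin trimers at the cell surface and a network of type IV collagen are held together by the linkers nidogen and perlecan. The liver sinusoid has no continuous basement membrane of the usual kind, and a denser, continuous matrix with laminin and type IV collagen forms along it in fibrosis, a change called capillarization. Stellate cells and sinusoidal endothelial cells both make components of this matrix.

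Libraries held between 8323809 counts (APB-R3 replicate 1) and 10792531 counts (APB-R3 replicate 2), and levels are given as CPM, the count divided by the library total and scaled to a common library size. The QuantSeq kit reads 1 fragment near the 3' end of each transcript, so that CPM does not grow with gene length. Levels of different genes are set side by side on this ground. The annotation was not stated, so such comparisons between genes are approximate. The cultures held RNA of several cell types. Summed over 16 sinusoidal endothelial markers, the level was between 7647 and 9001 CPM in a library, with the hyaluronan receptor gene Lyve1 at 1715 ± 126 CPM and the scavenger receptor gene Stab2 at 297 ± 32.2 CPM (SD, n = 6). Summed over 16 stellate cell markers it was between 956 and 1204 CPM, with the small proteoglycan gene Dcn at 308 ± 21.8 CPM and Col1a1, a chain of fibrillar type I collagen, at 139 ± 14.6 CPM. The endothelial sum was the higher of the 2 in every library. All 16 endothelial markers were tested, 5 with a log2 fold change above 0 and 11 below, and 0 passed after adjustment. Over all tested genes, 49.3% were below 0. Acta2, the smooth muscle actin gene used as a marker of stellate cell activation, had 133, 131 and 129 CPM in vehicle replicates 1 to 3 and 103, 108 and 80.6 CPM in APB-R3 replicates 1 to 3. All 3 APB-R3 libraries were lower, with a log2 fold change of −0.43 (SE 0.11, edgeR unadjusted p = 0.00080) that did not pass after adjustment over all genes (adjusted p = 0.9998, in a range from 0.0523 to 0.99998 over all alternatives). It ran from −0.53 to −0.31 with 1 library left out in turn. Acta2 was the 1 gene of 14 tested stellate cell markers whose groups did not overlap, beside 8.91% of all tested genes. Of the 14, 5 had a log2 fold change above 0 and 9 below, beside 49.3% of all tested genes below 0. Of the markers of retinoid-storing stellate cells, Reln had 11.5 ± 2.45 CPM and Lrat, the enzyme that esterifies retinol, 1.68 ± 0.677 CPM. The median over the 16 stellate cell markers was 12.7 CPM. Macrophage markers (12 genes) summed to between 403 and 679 CPM in a library, with Cd5l the most abundant at 107 ± 32.9 CPM. Of the 11 macrophage markers tested, 8 had a log2 fold change above 0 and 3 below, beside 49.3% of all tested genes below 0. After adjustment 0 of the 11 passed, as did 0 of all 12776 tested genes. All values below are those of whole cultures, in which fewer cells of a type and less RNA per cell cannot be told apart. Which cells held the transcripts of the 10 genes was not tested.

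Col4a1 and Col4a2, the genes of the most widespread type IV collagen chains, lie head to head on opposite strands. Their RefSeq promoter windows (build GRCm38.p6) are shown because they overlap. The ratio of their counts stayed between 1.82 and 2.08 in these libraries, which was not particular to this pair. Nid1 over Lamc1 ran from 2.92 to 3.39 and Sparc over Col4a1 from 2.75 to 3.31, while Hspg2 over Agrn ran more widely, from 3.40 to 5.55. The part of the shared stretch in the ratio was not tested. The count files were made on another build, GRCm39, so the positions below belong to the RefSeq table only. Each window runs from 250 bases before to 50 bases after a gene's start and is printed 5′ to 3′ on that gene's own strand, chr8:11312777-11313076 on the minus strand for Col4a1 and chr8:11312555-11312854 on the plus strand for Col4a2. Capitals mark the 78 bases, chr8:11312777-11312854, that lie in both windows and read as reverse complements of each other.
Col4a1: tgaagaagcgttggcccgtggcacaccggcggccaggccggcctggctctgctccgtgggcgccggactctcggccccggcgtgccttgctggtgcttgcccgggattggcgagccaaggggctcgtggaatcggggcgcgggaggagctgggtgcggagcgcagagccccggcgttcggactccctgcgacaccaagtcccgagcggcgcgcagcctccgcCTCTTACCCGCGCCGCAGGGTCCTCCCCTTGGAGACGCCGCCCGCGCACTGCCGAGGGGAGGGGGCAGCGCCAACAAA
Col4a2: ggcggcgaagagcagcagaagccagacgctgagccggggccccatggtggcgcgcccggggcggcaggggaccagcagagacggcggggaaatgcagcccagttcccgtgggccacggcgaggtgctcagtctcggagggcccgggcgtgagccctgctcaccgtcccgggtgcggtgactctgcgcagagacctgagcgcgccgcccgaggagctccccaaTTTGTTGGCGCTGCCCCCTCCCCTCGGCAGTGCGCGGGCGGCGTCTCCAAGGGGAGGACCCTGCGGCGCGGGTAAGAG
The starts used for the windows are 21 bases apart, and the annotated first bases of the transcripts overlap. Of 27025 genes with a window in the table, 11.9% had one that overlapped a window of another gene on the other strand. Among the 8 of the 10 genes with an entry, these were Col4a1, Col4a2 and Lamb1.

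The shared stretch was 73.1% G or C and held 1 match, on either strand, to the GC box letters GGGCGG, with no match to CCAAT or to TATAAA. Over all 32851 windows of 300 bases, 35.7% held GGGCGG, 37.4% held CCAAT and 13.6% held TATAAA on either strand. The Col4a1 window as a whole held 1 GGGCGG and 1 CCAAT, and the Col4a2 window 3 and 1. None of the 8 windows held TATAAA. The windows of Hspg2 (5 matches), Lama5 (4), Lamb1 (2) and Nid1 (1) also held GGGCGG, and those of Lamb2 and Sparc held none of the 3 motifs. The G and C content was 74.0% for Col4a1, 73.7% for Col4a2, 72.7% for Lama5, 70.3% for Hspg2, 64.7% for Nid1, 63.7% for Lamb1, 55.3% for Sparc and 44.0% for Lamb2, beside a median of 52.7% over all windows. These matches are descriptions of the letters in the windows.

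Together the 10 genes made up 1.03% to 1.12% of all counts, depending on the library. Sparc, which encodes a collagen-binding matricellular glycoprotein also called osteonectin, was the most abundant with 6279 ± 298.7 CPM (SD, n = 6) and made up 58.9% of the counts of the list. It was the seventh most abundant of all symbols in the files and lay above 99.95% of the tested genes. Below it came Col4a1 at 2112 ± 65.2 CPM, Col4a2 at 1077 ± 29.1 CPM, Nid1 at 426 ± 15.3 CPM and Hspg2 at 316 ± 24.5 CPM. The laminin chain genes followed, with Lamc1 at 136 ± 7.56 CPM, Lama4 at 125 ± 9.26 CPM, Lamb2 at 75.3 ± 11.1 CPM, Lamb1 at 75.1 ± 5.12 CPM and Lama5 at 38.1 ± 4.82 CPM. The order from Sparc down to Lamc1 was the same in all 6 libraries, as was the step from Lama4 to the β chains and from Lamb1 to Lama5. The ranges of Lamc1 and Lama4 overlapped (Lamc1 was higher in 5 of 6 libraries), and so did those of Lamb2 and Lamb1 (Lamb2 higher in 4 of 6), so that these neighbours were not separated. Beside the fibrillar collagen gene Col1a1, Col4a1 had between 13.1 and 17.3 times as many counts in each library.

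**Figure D1:**
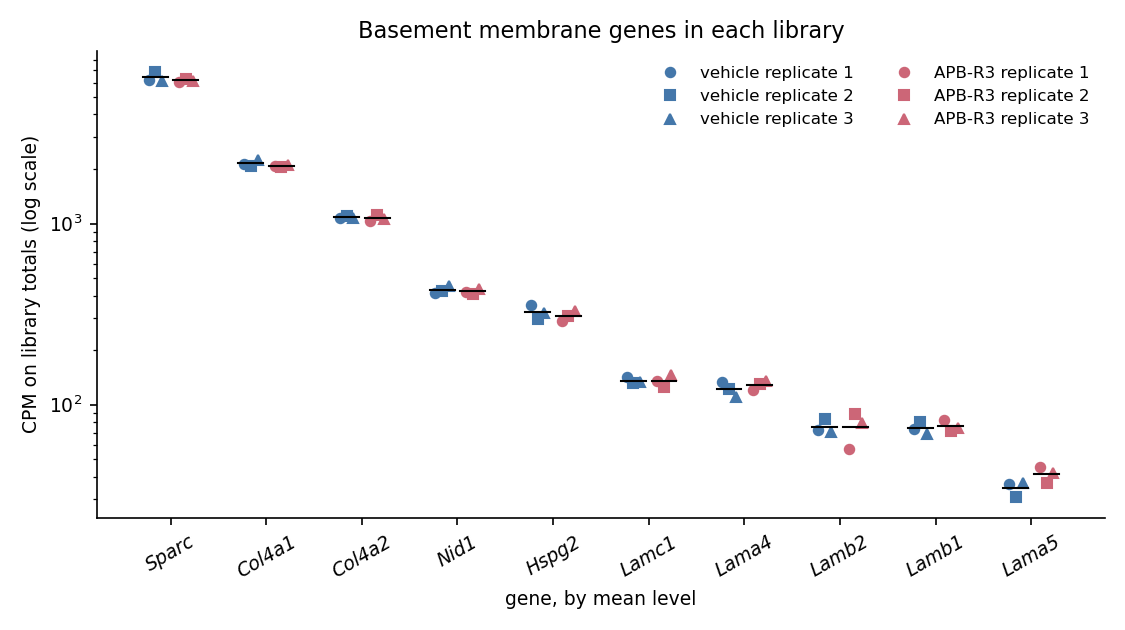
CPM on library totals (log axis) of the 10 genes in each of the 6 libraries, ordered by mean level, with black lines at the mean of each group of 3. Vehicle and APB-R3 points overlap for every gene, and the largest single departure is Lamb2 in APB-R3 replicate 1 at 57.3 CPM.

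None of the 10 genes passed the comparison of APB-R3 with vehicle. In edgeR's quasi-likelihood test with Benjamini-Hochberg adjustment over all genes, 0 of 12776 genes passed at an adjusted p under 0.05 (0%), and each of the 10 had an adjusted p of 0.9998. At an unadjusted p under 0.05 there were 0 of the 10 genes, beside 3.33% of all tested genes. Without APB-R3 replicate 2 this count was 1, the laminin gene Lama5, with a log2 fold change of 0.30 (SE 0.14). DESeq2's Wald test and limma-voom also called 0 genes. In 0 of the 10 genes did the 3 APB-R3 libraries lie all above or all below the 3 vehicle libraries, which was the case for 8.91% of all tested genes (4.75% higher and 4.16% lower). The log2 fold change was below 0 in 7 of the 10 and above 0 in 3, with a median of −0.02, beside 49.3% of all tested genes below 0 and a median of 0.003. Without vehicle replicate 2, the library with the highest Sparc level, 4 of the 10 were below 0 and the median was 0.004.

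Type IV collagen is the network-forming collagen of the basement membrane, and its common protomer holds more α1 chains, from Col4a1, than α2 chains, from Col4a2. Col4a1 had 2133, 2074 and 2229 CPM in vehicle replicates 1 to 3 and 2087, 2041 and 2107 CPM in APB-R3 replicates 1 to 3. The APB-R3 values lay within or just under the vehicle range, with a log2 fold change of −0.05 (SE 0.08, 95% interval −0.21 to 0.11), or −0.03 without vehicle replicate 3. Col4a2 had 1078, 1100 and 1070 CPM in the vehicle replicates and 1039, 1119 and 1056 CPM with APB-R3. APB-R3 replicates 1 and 2 were the lowest and the highest of all 6 libraries, and the log2 fold change was −0.02 (SE 0.08, 95% interval −0.19 to 0.15). It turned to 0.002 without vehicle replicate 2 and to 0.0008 without APB-R3 replicate 3. All intervals of fold changes given here are not adjusted for the number of genes.

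The ratio of Col4a1 to Col4a2 counts ranged from 1.82 to 2.08 over the 6 libraries. Col4a1 made up 66.4%, 65.3% and 67.6% of the pair in vehicle and 66.8%, 64.6% and 66.6% in APB-R3. The groups overlapped, with a difference of −0.45 percentage points that was smaller than the SD within either group (1.12 in vehicle and 1.21 in APB-R3) and an exact two-sided permutation p of 0.7 (1 adjusted over the 3 shares tested). With 3 against 3 libraries the smallest p such a test can give is 0.1. The difference turned to 0.11 without vehicle replicate 3 and to 0.25 without APB-R3 replicate 2. The other type IV collagen genes, Col4a3 to Col4a6, which form networks found in few tissues, summed to 2.30 ± 0.781 CPM (SD, n = 6), and Col4a6 had 0 counts in all 6 libraries.

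Laminins are trimers of an α, a β and a γ chain, in which the α chain carries the main sites for cell surface receptors. Lama4, the α chain typical of endothelial and mesenchymal cells, had 133, 122 and 110 CPM in the vehicle replicates and 121, 130 and 135 CPM with APB-R3. The groups overlapped over most of their range, with a log2 fold change of 0.07 (SE 0.10, 95% interval −0.14 to 0.28) that turned to −0.002 without vehicle replicate 3. Lama5, the broadly expressed α chain of mature basement membranes, had 36.4, 31.1 and 37.2 CPM in the vehicle replicates and 45.1, 36.8 and 41.8 CPM with APB-R3. APB-R3 replicates 1 and 3 lay above all vehicle libraries and replicate 2 between the vehicle libraries. The log2 fold change of Lama5, 0.23 (SE 0.13, 95% interval −0.04 to 0.51), was farthest from 0 among the 10 genes and rested on 329 to 421 counts a library, the lowest of the list (unadjusted p = 0.0919, edgeR). It kept its sign in all 15 alternative analyses, from 0.09 to 0.30. Lama4 made up 78.5%, 79.7% and 74.8% of the Lama4 and Lama5 counts in vehicle and 72.8%, 77.9% and 76.3% in APB-R3, a difference of −1.98 percentage points that was smaller than the SD within either group (2.60 each) and had an exact two-sided permutation p of 0.4.

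Lamb1 and Lamb2 encode the β1 and β2 chains, of which β2 is the chain of mature vessel, kidney and synaptic basement membranes. Lamb1 had 73.2, 80.6 and 69.3 CPM in the vehicle replicates and 82.1, 71.3 and 74.2 CPM with APB-R3. The groups covered nearly the same range, with a log2 fold change of 0.02 (SE 0.11, 95% interval −0.21 to 0.25), or −0.03 without vehicle replicate 3 and −0.05 without APB-R3 replicate 1. Lamb2 had 72.7, 83.6 and 70.8 CPM in the vehicle replicates and 57.3, 88.7 and 78.9 CPM with APB-R3. APB-R3 replicate 1 was the lowest of all libraries for Lamb2 and the highest for Lamb1 and Lama5, while APB-R3 replicate 2 was the highest for Lamb2. The spread of Lamb2 in APB-R3, a coefficient of variation of 21.4% beside 9.13% in vehicle, was the largest of the 10 genes, and its 477 counts in replicate 1 carry a counting error of 4.58%. The log2 fold change of Lamb2 was −0.02 (SE 0.13, 95% interval −0.29 to 0.26), 0.13 without APB-R3 replicate 1 and 0.07 without vehicle replicate 2.

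The balance of the β chains was near even in the vehicle libraries and more spread in the APB-R3 libraries. This difference in spread was not tested. Lamb1 made up 50.2%, 49.1% and 49.5% of the Lamb1 and Lamb2 counts in vehicle and 58.9%, 44.6% and 48.5% in APB-R3. The APB-R3 libraries lay on either side of the vehicle libraries, 1 above and 2 below, with a mean difference of 1.06 percentage points (exact two-sided permutation p = 1). Without APB-R3 replicate 1 the difference was −3.06 percentage points. This library had the lowest total, and its summed endothelial markers (7647 CPM) and stellate cell markers (956 CPM) were the lowest of the 6. The part of these in the Lamb2 value was not tested.

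Lamc1 encodes the γ1 chain, the γ chain of most laminins and the one that nidogen binds. It had 142, 132 and 133 CPM in the vehicle replicates and 136, 125 and 146 CPM with APB-R3. APB-R3 replicates 2 and 3 were the lowest and the highest of all libraries, and the log2 fold change was −0.004 (SE 0.10, 95% interval −0.20 to 0.19), the nearest to 0 of the list. Leaving out vehicle replicate 1 gave 0.03, leaving out APB-R3 replicate 2 gave 0.05, and library totals as the only scaling gave 0.002. Summed by type, the α chain genes Lama4 and Lama5 had 163 ± 10.76 CPM, the β chain genes Lamb1 and Lamb2 150.4 ± 10.4 CPM and the γ chain gene Lamc1 136 ± 7.56 CPM (SD, n = 6). The means of the 3 types over the 6 libraries differed by at most 1.205-fold. Single libraries could differ more, as in APB-R3 replicate 2, with 167 CPM for the α chain genes and 125 CPM for Lamc1. Chains enter a trimer in equal numbers, but proteins were not measured, so a match to these transcript levels was not tested.

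**Figure D2:**
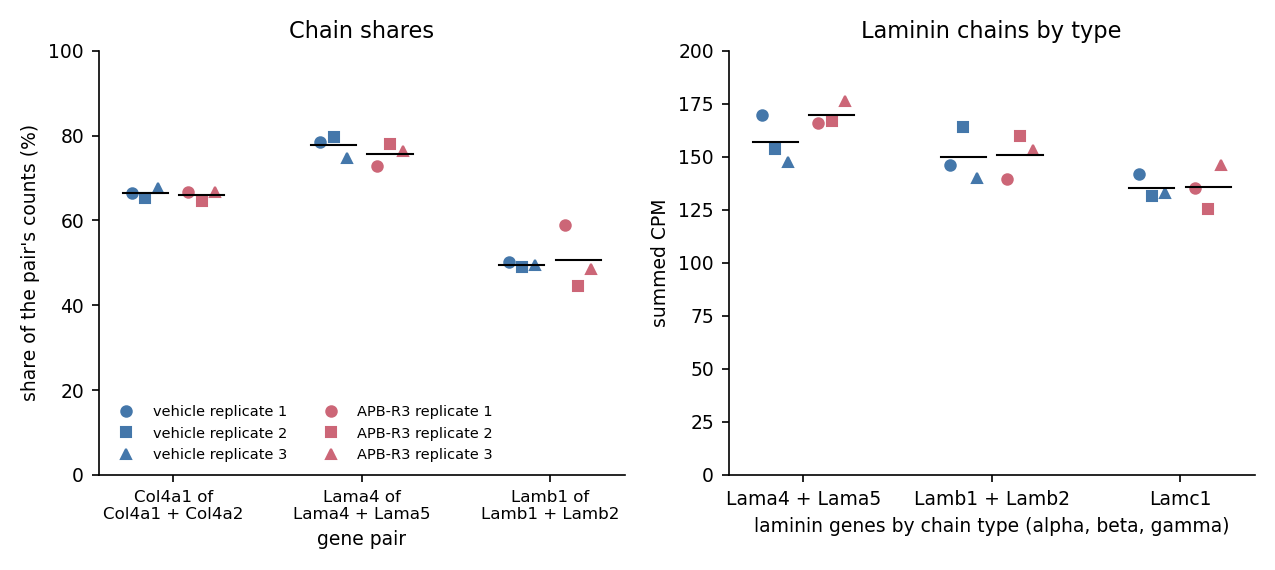
Left, the share (%) of Col4a1, Lama4 and Lamb1 in the counts of their pair in each library. Right, the CPM of the 5 laminin chain genes of the list summed by type (α, β and γ), with black lines at the mean of each group of 3. The type IV collagen share stays between 64.6% and 67.6%, while the Lamb1 share runs from 44.6% to 58.9% within APB-R3.

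Nid1 and Hspg2 encode the linkers nidogen-1, which joins laminin γ1 to type IV collagen, and perlecan, a large heparan sulfate proteoglycan that also binds growth factors. Nid1 had 415, 424 and 451 CPM in the vehicle replicates and 420, 410 and 437 CPM with APB-R3. The groups overlapped, with a log2 fold change of −0.03 (SE 0.08, 95% interval −0.20 to 0.14) that was 0.0009 without vehicle replicate 3. Hspg2 had 357, 296 and 319 CPM in the vehicle replicates and 289, 309 and 328 CPM with APB-R3. Vehicle replicate 1 was the highest and APB-R3 replicate 1 the lowest, and the log2 fold change was −0.07 (SE 0.09, 95% interval −0.27 to 0.12), or −0.003 without vehicle replicate 1. Beside its binding partner Lamc1, Nid1 had between 2.92 and 3.39 times as many counts in each library. Hspg2 had between 3.40 and 5.55 times the counts of Agrn, another large heparan sulfate proteoglycan of basement membranes.

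Sparc binds type IV and fibrillar collagens and takes part in their deposition. It had 6208, 6861 and 6120 CPM in the vehicle replicates and 6034, 6300 and 6150 CPM with APB-R3. Vehicle replicate 2 stood above the other 5 libraries, which lay within 6034 to 6300 CPM. The log2 fold change was −0.06 (SE 0.08, 95% interval −0.22 to 0.10), and it was 0.005 without vehicle replicate 2. That library also had the highest summed level of hepatocyte markers, 114 CPM beside 22.3 to 35.2 CPM in the others (the most abundant of them, the transferrin gene Trf, had 19.2 ± 6.06 CPM, n = 6), and the highest sum of stellate cell markers, 1204 CPM. The part of these in the Sparc value was not tested. The summed level of the 10 genes was 10821 ± 333 CPM with vehicle against 10498 ± 168 CPM with APB-R3 (SD, n = 3), and without Sparc 4424 ± 74.1 and 4337 ± 64.2 CPM. The groups overlapped in both sums.

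**Figure D3:**
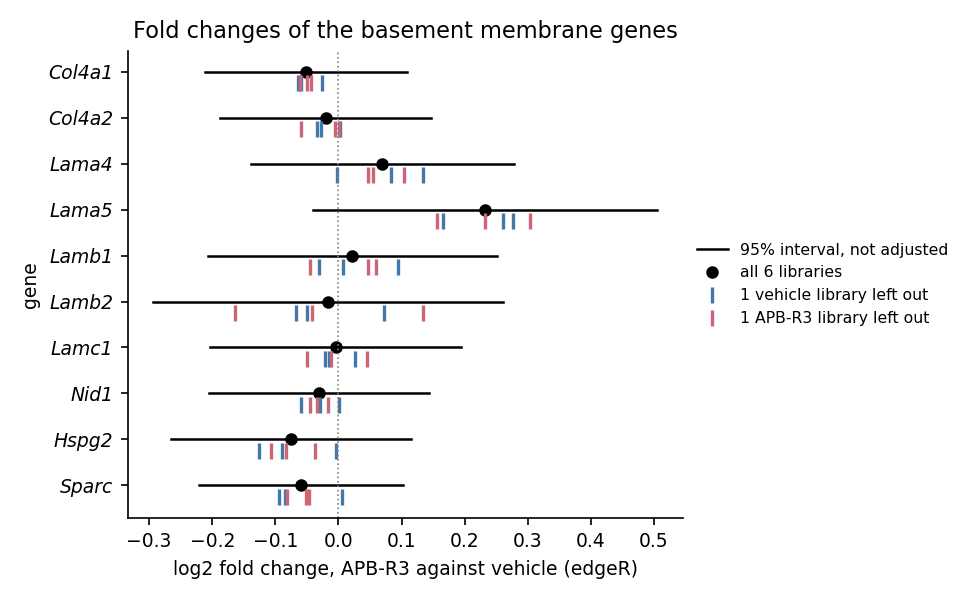
Log2 fold change of APB-R3 against vehicle from edgeR for each of the 10 genes (points) with its unadjusted 95% interval (lines), and the values with 1 vehicle or 1 APB-R3 library left out (ticks). All 10 intervals include 0, and Lamb2 and Lama5 have the widest, from −0.29 to 0.26 and from −0.04 to 0.51.

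The other genes of basement membrane biology, grouped in 4 lists, held 0 genes that passed edgeR's test after adjustment over all genes (adjusted p = 0.9998 for each gene named here). Of 25 other components, 11 were tested, 4 with a log2 fold change above 0 and 7 below, beside 49.3% of all tested genes below 0. Their median was −0.06, beside 0.003 over all tested genes, and it turned to 0.005 without vehicle replicate 2. The most abundant was Tinagl1, a secreted matrix glycoprotein, at 1341 ± 124 CPM (SD, n = 6), between the levels of Col4a1 and Col4a2. Its log2 fold change was −0.04 (SE 0.09), or 0.05 without vehicle replicate 2 and 0.02 without APB-R3 replicate 1. Nid2, the second nidogen gene, had the smallest p of this list, with 34.6, 43.0 and 37.3 CPM in the vehicle replicates and 28.5, 27.6 and 36.5 CPM with APB-R3. APB-R3 replicates 1 and 2 lay below all vehicle libraries and replicate 3 did not, with a log2 fold change of −0.32 (SE 0.14, unadjusted p = 0.0368). Nid1 had between 9.85 and 12.1 times the counts of Nid2 in vehicle and between 11.97 and 14.9 times in APB-R3, ranges that overlapped. The values of this list ran from −1.12 to 1.40, and the genes at its ends, Col15a1 and Lama2, named after their values were seen, had 1.78 ± 1.35 and 0.871 ± 0.687 CPM (SD, n = 6). The 14 components that were not tested had at most 51 counts over all 6 libraries.

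The 15 genes for folding, export and crosslinking of type IV collagen were all tested, 3 above and 12 below 0. Their median log2 fold change was −0.05, beside a median of 0.003 and 49.3% below 0 over all tested genes. The crosslinking lysyl oxidase gene Loxl2 was the most abundant at 618 ± 53.5 CPM, with a log2 fold change of −0.06 (SE 0.09), or 0.02 without APB-R3 replicate 1. P3h2, a prolyl 3-hydroxylase that acts on type IV collagen, had the smallest p, at 7.80 ± 2.54 CPM with vehicle against 5.24 ± 1.06 CPM with APB-R3 (SD, n = 3) and a log2 fold change of −0.58 (SE 0.31), or −0.27 without vehicle replicate 2. In 1 of the 15 genes the groups did not overlap, beside 8.91% of all tested genes. This was Pxdn, the peroxidase that forms the sulfilimine crosslinks of type IV collagen, named after its values were seen. Pxdn had 211, 214 and 211 CPM in the vehicle replicates and 221, 256 and 223 CPM with APB-R3, so that all 3 APB-R3 libraries were higher. Its log2 fold change was 0.13 (SE 0.09, unadjusted p = 0.160), or 0.06 without APB-R3 replicate 2.

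Of 10 receptor genes for laminin and type IV collagen, 9 were tested, 2 above and 7 below 0, beside 49.3% of all tested genes below 0. Their median log2 fold change was −0.13, beside 0.003 over all tested genes. Over the libraries left out in turn, this median ran from −0.19 to −0.02. Itgb1, the β1 integrin subunit shared by most of these receptors, was the most abundant at 1191 ± 95.1 CPM, with a log2 fold change of −0.07 (SE 0.09), or 0.005 without APB-R3 replicate 1. Itga3, the α subunit of a laminin-binding integrin, had the smallest p, at 61.0 ± 4.65 CPM with vehicle against 54.4 ± 2.23 CPM with APB-R3 and a log2 fold change of −0.17 (SE 0.11).

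Among 10 genes of matrix turnover, 5 were above and 5 below 0, with a median log2 fold change of 0.06 that turned to −0.04 without APB-R3 replicate 2. The groups did not overlap in 3 of the 10, all higher in APB-R3, beside 4.75% of all tested genes. These were the proteases Mmp14, Mmp9 and, named after its values were seen, Mmp3. Mmp14, a membrane-bound protease that activates Mmp2 and the most abundant of the list, had 532, 517 and 479 CPM in the vehicle replicates and 630, 552 and 536 CPM with APB-R3, with a log2 fold change of 0.16 (SE 0.09), or 0.08 without APB-R3 replicate 1. Mmp9, which degrades type IV collagen and gelatin, had 20.6, 16.3 and 11.1 CPM in the vehicle replicates and 36.8, 21.96 and 27.7 CPM with APB-R3, with a log2 fold change of 0.84 (SE 0.21, unadjusted p = 0.000617). Mmp3 had a log2 fold change of 0.53 (SE 0.23). Neither Mmp9 nor Mmp3 passed after adjustment over all genes. Which cells of the cultures, macrophages among them, held the Mmp9 transcripts was not tested. With no filter on low counts, where 20496 genes were tested, Mmp9 was the 1 gene of the 4 lists that passed (edgeR adjusted p = 0.00246, in a range up to 0.99998 over all alternatives).

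**Figure D4:**
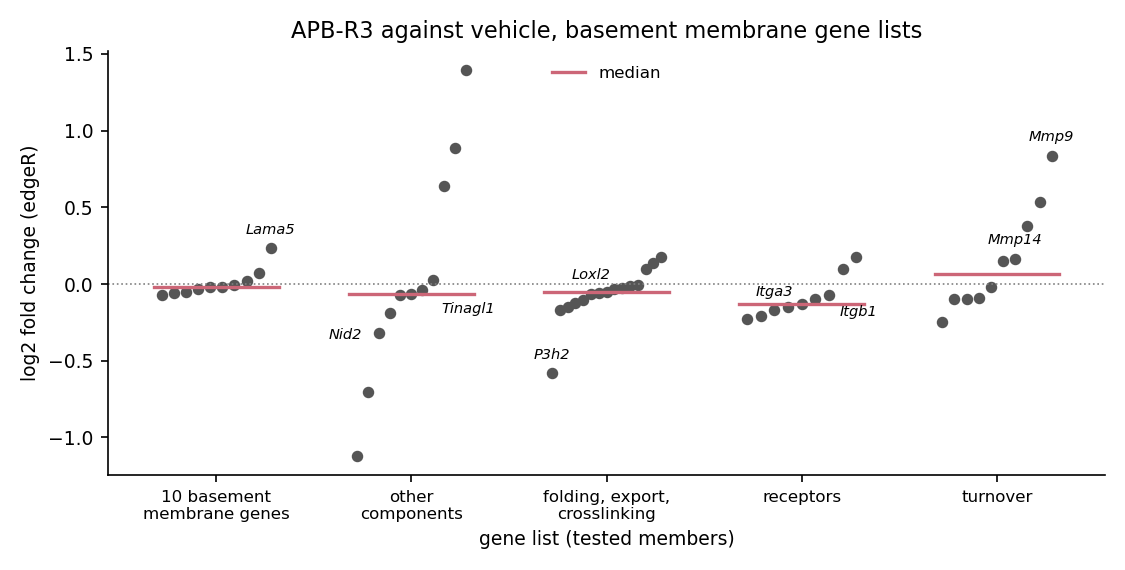
Log2 fold changes (edgeR, APB-R3 against vehicle) of the tested genes in the list of 10 and in 4 lists of other basement membrane genes. Each point is a gene, in order within its list, and the red line is the median. The medians lie between −0.13 for receptors and 0.06 for turnover genes, and 0 genes passed after adjustment over all genes.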

How the data were processed

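The authors deposited 1 file per library with raw read counts, whole numbers for each gene symbol. Per the submitters' processing notes, the authors used bcl2fastq 2.20.0.422, fastp, STAR and HTSeq on GRCm39. Per the labels' protocols, QuantSeq libraries were made from 500 ng of total RNA. Other versions, the annotation, the strand setting and the handling of molecular identifiers were not stated there, so counting errors cover counting error only.

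Counts were tested in edgeR 4.0.16 (R 4.3.3) with filterByExpr (minimum count 10, minimum total 15), TMM factors and glmQLFit and glmQLFTest, treatment being the only term, on all 12776 genes that passed. p-values are two-sided and Benjamini-Hochberg adjusted over these. The SE of a log2 fold change was derived from its F statistic. Shares within gene pairs were compared by exact permutation of libraries. No 2 libraries were copies (chi-square per degree of freedom 5.54 to 13.6). The labels give no batch. Alternatives were DESeq2 1.42.0, limma-voom (limma 3.58.1), other scalings and filters, a replicate block and libraries left out.

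The members and lists were chosen with earlier results of these data known. Besides the 10 members, the text names the most abundant gene and the gene with the smallest p of each pathway list, and set markers. Agrn, Col4a6, Col15a1, Lama2, Pxdn, Mmp3 and Hp are named outside this rule, with their values known. Replicate numbers are those of the sample titles. The headers inside the files carry numbers 1 higher. Promoter windows are from RefSeq (GRCm38.p6), matched by symbol for 8 of the 10 genes.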

Additional observations from a re-analysis of the deposited data

How the results depend on the processing

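None of the 10 basement membrane genes passed in the main analysis or in any of the 15 alternatives, with 9 of the 10 tested where the 20 most abundant genes, Sparc among them, were left out. Over all genes, 20 passed with no filter on low counts, 8 higher and 12 lower, and 1 of them, Mmp9, was in the 4 pathway lists. With 1 library left out in turn, between 0 and 1 gene passed, and the 1, without vehicle replicate 3, was the plasma protein gene Hp, named after its values were seen. The log2 fold changes of Col4a1, Lama5 and Hspg2 kept their sign in every alternative. With 1 library left out in turn the ranges were −0.064 to −0.027 for Col4a1, 0.157 to 0.303 for Lama5, −0.126 to −0.0034 for Hspg2, −0.059 to 0.0025 for Col4a2, −0.0025 to 0.133 for Lama4, −0.045 to 0.095 for Lamb1, −0.163 to 0.134 for Lamb2, −0.0502 to 0.045 for Lamc1, −0.0595 to 0.00093 for Nid1, −0.095 to 0.0052 for Sparc, −0.125 to 0.053 for Tinagl1, −0.147 to 0.025 for Loxl2, −0.748 to −0.274 for P3h2, 0.056 to 0.177 for Pxdn, 0.082 to 0.221 for Mmp14 and −0.124 to 0.0046 for Itgb1. They were −0.043 to 0.0038 for the median of the 10 genes, −0.147 to 0.0045 for the median of other components, −0.045 to 0.121 for that of turnover genes and −0.0028 to 0.0080 for that of all tested genes. Lamc1 was 0.0017 with library totals only. Without both vehicle replicate 2 and APB-R3 replicate 1, an alternative chosen after seeing the data, Col4a2 was 0.017, Lamb2 0.224, Sparc 0.013, Tinagl1 0.117, Loxl2 0.073, Itgb1 0.055 and the median of the 10 genes 0.015. The difference in the Col4a1 share ran from −1.01 to 0.25 percentage points, that in the Lama4 share from −3.44 to −0.55 and that in the Lamb1 share from −3.06 to 4.10. The difference in the summed level ran from −428 to −130 CPM. The cause of these changes of sign was not tested.

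The column headers inside the count files carry numbers that are 1 higher than those of the sample titles, in both groups, so that the titles and the headers number the libraries differently but put the same libraries together in a block. With this number as a block, 0 genes and 0 of the 10 passed, and 539 genes had an unadjusted p under 0.05 (425 without it). Deviations of same-numbered libraries correlated at 0.022, 0.027 and 0.048 over genes, and each library correlated best with its own number. These small values do not settle whether the libraries are pairs, so the block is given as an alternative only. Lama5 had the fewest counts of the 10 genes, 329 to 421 a library, for a counting error of up to 5.51%.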
